A study of Saccharomyces cerevisiae W303 with 9 samples.

Results

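The small (40S) subunit of the cytosolic yeast ribosome is built on 1 ribosomal RNA and on proteins of the Rps series, and the genes described here are the 56 that encode them, from RPS0A to RPS31. They were taken by name from a table of 7127 annotated features, and all 56 were found. No measured value decided which genes belong to the set, but the set was chosen with earlier results of these data known. They make 32 protein families, of which 24 are pairs of duplicated genes with an A and a B copy and 8 are single genes, such as RPS2, RPS12, RPS20 and RPS31. The table holds read counts from poly(A) RNA sequencing of 9 Saccharomyces cerevisiae libraries of the W303 laboratory background. Its 3 groups of 3 isolates are the wild type, a strain in which AIM29 is deleted (the deletion strain), and a strain that carries the same aim29 deletion together with pmTDH3-ZPR1 (the construct strain), so that the construct strain also lacks AIM29 and no library carries the construct beside an intact AIM29. All were collected from YPD, a rich glucose medium, at an OD600 between 0.4 and 0.6. What pm stands for in the construct is not spelled out in the labels. TDH3 encodes an abundant glycolytic enzyme, and the zinc finger protein Zpr1 is a chaperone of the elongation factor eEF1A.

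Ribosomal protein genes are among the most strongly transcribed genes of growing yeast, and their output is matched to growth by the nutrient-sensing TOR and protein kinase A pathways. Most of them are transcribed from promoters bound by Rap1 together with Fhl1 and its coactivator Ifh1, and Sfp1 adds a further nutrient-dependent input. Because a ribosome holds 1 molecule of most of its proteins, the genes are usually described as a regulon that moves together, while some pairs have a dominant copy and several genes of the series limit their own expression through an intron or the end of their transcript.

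Of the 56 genes, 36 have an intron in the annotation of build R64 (64.3%, against 5.30% of 6002 nuclear protein-coding genes), and in those 36 the first exon holds a median of 20.5 coding bases. Both copies have one in 17 pairs, neither has in 6, and in the RPS22 pair RPS22B alone does, with the small nucleolar RNA gene SNR44 inside it. Coding lengths ran from 171 bases in RPS29A and RPS29B to 786 in RPS4A and RPS4B. The copies of a pair are 84.3% identical (RPS27) to 99.2% identical (RPS6) over their coding sequence, which sets how well reads can be assigned to 1 copy. The share of 50-base windows of the coding sequence that occur once in the genome was 27.3% for RPS6A and RPS6B, 52.3% for the RPS4 pair, 61.5% for the RPS24 pair and at least 82.1% for the other genes given by name with values. Values of single copies in the RPS6, RPS4 and RPS24 pairs are therefore uncertain, since how multiply mapped reads were counted is not given in the sources used here.

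The last 90 coding bases of both copies are shown for 3 pairs, each on its own strand, with the stop codon at the end. The sequences were read from the RefSeq genome of build R64, and capitals mark the bases that differ from the other copy. RPS21A (chrXI:552153-552242, plus strand) and RPS21B (chrX:156550-156639, minus strand) differ at 5 of them, RPS28A (chrXV:648804-648893, minus strand) and RPS28B (chrXII:673245-673334, plus strand) at 8, and RPS19A (chrXV:92026-92115, minus strand) and RPS19B (chrXIV:61958-62047, minus strand) at 0. The RPS21 and RPS28 pairs are shown because their copies separated in the comparisons below, and the RPS19 pair because its ends are the same.
RPS21A: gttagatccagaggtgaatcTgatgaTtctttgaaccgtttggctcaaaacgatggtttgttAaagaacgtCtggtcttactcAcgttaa
RPS21B: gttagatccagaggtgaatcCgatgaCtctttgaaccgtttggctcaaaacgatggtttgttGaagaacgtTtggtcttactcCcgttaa
RPS28A: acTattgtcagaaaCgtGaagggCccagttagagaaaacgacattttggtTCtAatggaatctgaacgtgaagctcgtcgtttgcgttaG
RPS28B: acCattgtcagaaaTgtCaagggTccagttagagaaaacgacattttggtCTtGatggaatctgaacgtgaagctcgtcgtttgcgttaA
RPS19A: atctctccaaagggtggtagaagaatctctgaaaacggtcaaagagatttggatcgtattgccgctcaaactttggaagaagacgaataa
RPS19B: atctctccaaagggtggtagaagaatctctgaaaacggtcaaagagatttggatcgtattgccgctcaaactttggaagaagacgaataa

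The libraries held 14380639 to 20140071 counts, and the 56 genes took 8.66% to 9.74% of them. AIM29 was at 78.4 ± 3.38 CPM (read counts scaled to library size with TMM factors, mean ± SD of 3) in wild-type isolates, 2.76 ± 1.72 in deletion isolates and 6.56 ± 1.22 in construct isolates, and ZPR1 was at 329 ± 7.59, 422 ± 22.6 and 5380.4 ± 454. One library stood apart in the 56 genes: construct replicate 1 had a median log2 ratio to the wild-type mean of 0.10, against -0.08 in replicate 2 and -0.03 in replicate 3, while the deletion libraries had 0.11, 0.11 and 0.10. Of the 56 genes, 48 lay above every wild-type library in construct replicate 1, but 10 in replicate 2 and 6 in replicate 3. Below every wild-type library lay 3 genes in construct replicate 1, 37 in replicate 2 and 33 in replicate 3. Such counts were not tallied over all tested genes. Their median log2 ratio was -0.0024, 0.0027 and -0.0063 in construct replicates 1, 2 and 3. The median coefficient of variation of a gene among the libraries of a group was 2.30% in wild-type isolates, 2.08% in deletion isolates and 7.64% in construct isolates. It was 3.41%, 3.32% and 8.04% for the 3115 other genes at or above the level of the lowest of the 56. Those genes were not otherwise matched to the 56 by level.

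**Figure D1:**
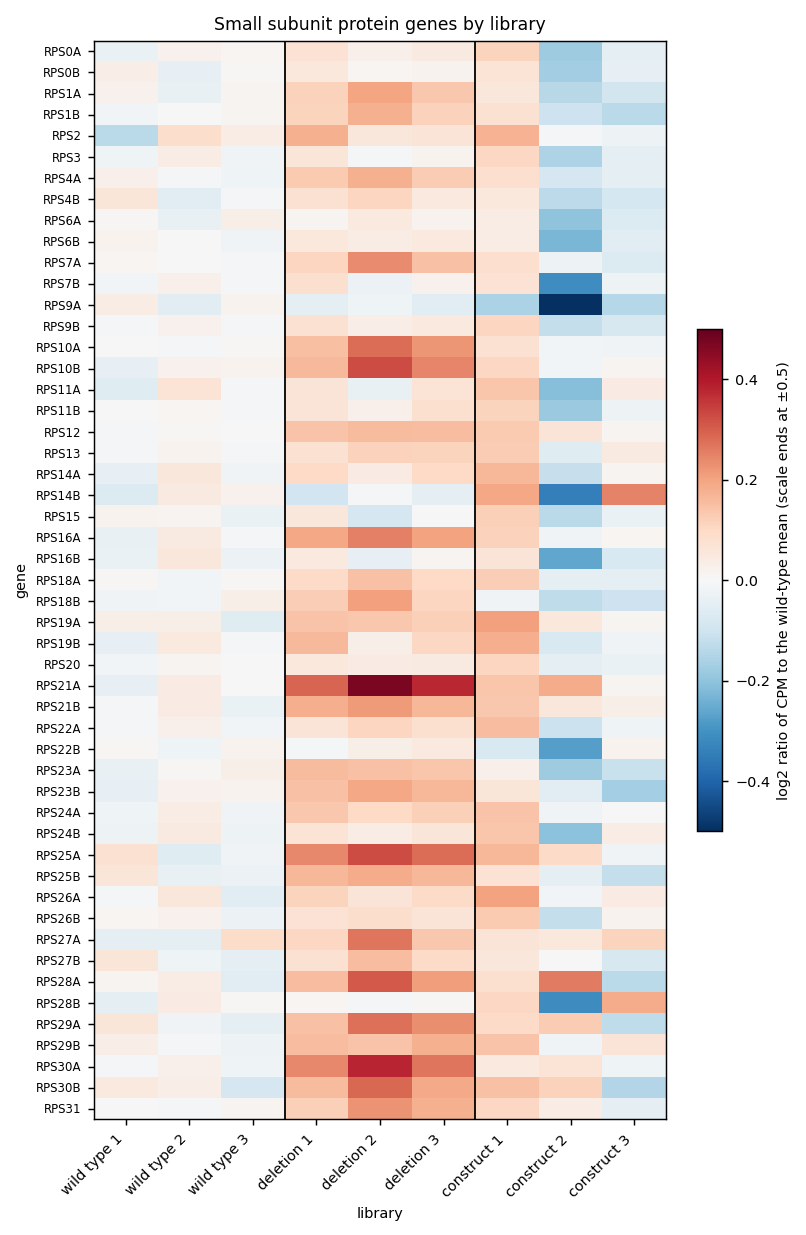
Log2 ratio of 51 of the 56 genes (rows) in each of the 9 libraries (columns) to its wild-type mean CPM, with the colour scale ending at 0.5 in either direction. The 3 deletion libraries and construct replicate 1 are mostly above the wild-type mean, with medians of 0.10 to 0.11, and construct replicates 2 and 3 are mostly below it, with RPS21A the highest row of the deletion libraries.

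In the wild type the level of a gene per kilobase of coding sequence spanned 50.9-fold, with a median of 3464 CPM per kilobase. The highest 2 were RPS31 (YLR167W), whose protein is made as a fusion with ubiquitin, at 9957 ± 87.8 CPM per kilobase (SD, n = 3), and RPS20 at 8829.55 ± 86.3. Both are single genes, and RPS20 encodes a protein of the subunit's head. The lowest were RPS27A (YKL156W) at 195 ± 11.0, RPS14B at 659 ± 26.3 and RPS22B at 703 ± 9.75, each the minor copy of its pair. RPS14B is known for splicing that is repressed by its own protein. Neighbours in the order of levels were often within each other's spread: in 18 of 55 neighbouring pairs the 3 libraries of one gene did not overlap those of the next.

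Summed over both copies, the families were closer to each other than the genes were. The sums ran from 1162 ± 92.7 CPM per kilobase in RPS2 to 9957 ± 87.8 in RPS31, an 8.57-fold range with a median of 6189. RPS2, which encodes a protein that influences the accuracy of decoding, is a single gene and stood below the next-lowest family, RPS27, at 2446 ± 80.1. The A copy was higher in all wild-type libraries in 10 pairs and the B copy in 13, and in RPS28 the copies overlapped. As a share of the pair's counts per kilobase, the A copy made up 87.2% ± 0.28 of RPS14, 86.7% ± 0.33 of RPS22 and 73.8% ± 0.77 of RPS30, the 3 largest shares. The 3 smallest were 8.01% ± 0.64 in RPS27, 19.1% ± 0.72 in RPS9 and 32.9% ± 0.95 in RPS19.

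**Figure D2:**
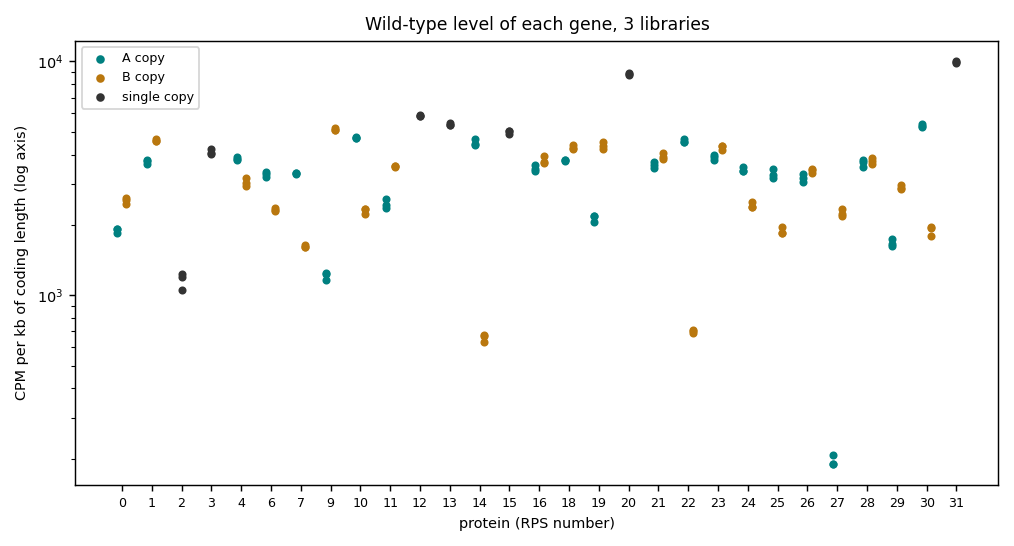
Wild-type level of 51 of the 56 genes in CPM per kilobase of coding length (log axis), by protein number, with 3 libraries per gene and colours for the A copy, the B copy and single genes. RPS27A, RPS14B and RPS22B lie below 1000 CPM per kilobase, and RPS31 and RPS20 are highest.

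The deletion strain was compared with the wild type to ask how these genes differ when AIM29 is missing. Small subunit genes were slightly higher in the deletion strain, by a median of 0.11 on the log2 scale, and 53 of 56 had a fold change above 0. Among the 7 genes called higher, RPS21A, RPS30A, RPS25A, RPS10B, RPS10A and RPS16A rose by 1.16-fold to 1.30-fold. RPS21A had the largest difference, and RPS14B, RPS9A and RPS15 were the 3 genes with a fold change below 0, from -0.05 to -0.01. In poly(A) RNA from whole cultures such a difference is one of the gene's share of the RNA: changes in the amount of RNA per cell, or in the mix of cells, cannot be told apart from it.

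With the quasi-likelihood test of edgeR, adjusted by Benjamini-Hochberg over 5970 genes, 7 of the 56 genes were called higher (12.5%) and 0 lower at an adjusted p under 0.05, where 4.24% of all tested genes were called higher and 2.16% lower. At an unadjusted p under 0.05 there were 24 higher and 0 lower, but all tested genes were not tallied at that threshold. DESeq2 called 11 of the 56 higher and 0 lower. Over all 5970 tested genes DESeq2 called 365 higher and 232 lower. All 3 deletion libraries lay above all 3 wild-type libraries in 40 of the 56 genes (71.4%) and below them in 0, against 21.1% and 19.2% of all tested genes. The median log2 fold change of 0.11 stood beside 0.0035 for all tested genes and 0.08 for the 81 other cytosolic ribosomal protein genes. With library totals as the only scaling the median of the 56 was 0.05, beside -0.05 for all tested genes. The split of all calls then went from 253 higher and 129 lower to 187 and 316. The number of calls among the 56 depended on single libraries: it was 3, 2 and 1 without wild-type replicate 1, 2 or 3, it was 3, 2 and 2 without deletion replicate 1, 2 or 3, and it was 17, 12 and 18 without construct replicate 1, 2 or 3, whose spread enters the shared estimate. Calls over all tested genes moved too, with 122 to 156 higher without a wild-type or deletion library and 317 to 577 without a construct library.

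The RPS21 pair encodes a small surface protein that sits beside Rps0 and Rps2. RPS21A (YKR057W, chromosome XI, 551657 to 552242, plus strand) had 925, 979 and 952 CPM in wild-type isolates, 1165, 1319 and 1235 in deletion isolates and 1048, 1083 and 962 in construct isolates. The deletion libraries were above all others, and construct replicate 3 lay within the wild-type range. The level of RPS21A in the deletion strain was 1.30-fold that of the wild type (log2 fold change 0.38 ± 0.06, SE; adjusted p = 0.00515 by edgeR). The call was made under all 9 alternative settings and without any of the 9 libraries in turn. RPS21B (YJL136C) had 1033, 1069 and 1014 CPM in the wild type and 1177, 1203 and 1165 in the deletion strain, again without overlap. Its difference of 0.19 ± 0.05 fell just outside the threshold (adjusted p = 0.0506).

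Rps30 is a small basic protein that is fused to a ubiquitin-like domain in mammals but not in yeast. RPS30A (YLR287C-A, chromosome XII, 712537 to 713158, minus strand) had 1019.6, 1041 and 1007 CPM in wild-type isolates, 1207, 1332 and 1232 in deletion isolates and 1058, 1074 and 1007 in construct isolates. Its deletion libraries were above all others, and the construct and wild-type libraries overlapped. It was 1.23-fold higher in the deletion strain (0.30 ± 0.05, adjusted p = 0.0079), and without wild-type replicate 3 the adjusted p was 0.0544. RPS30B, the minor copy, had 376, 372 and 343 CPM against 406, 444 and 415, with no overlap. Its log2 fold change of 0.21 ± 0.08 did not pass the test (adjusted p = 0.14).

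Rps25 is needed in yeast for translation from certain viral internal entry sites. RPS25A (YGR027C, chromosome VII, 534132 to 534458, minus strand), the one called gene here that has no intron, had 1139, 1035 and 1068 CPM in wild-type isolates, 1276, 1356 and 1311 in deletion isolates and 1212, 1156 and 1068 in construct isolates. All deletion libraries were above the rest, while 2 of the 3 construct libraries were above the wild-type range. The difference between deletion strain and wild type was 0.28 ± 0.06 (adjusted p = 0.0218). For RPS25B it was 0.17 ± 0.06 (adjusted p = 0.111).

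Rps10 lies in the head near the entry of the mRNA, and in human cells it is ubiquitinated when ribosomes collide. RPS10A (YOR293W) had 1499, 1491 and 1507 CPM in wild-type isolates, 1663, 1821 and 1748 in deletion isolates and 1581, 1486 and 1479.7 in construct isolates. RPS10B (YMR230W) had 710.3, 741 and 741, then 817, 917 and 866, then 786, 725 and 737. In both copies the deletion libraries were above all others. This was the single pair in which both copies were called, at 0.22 ± 0.05 (adjusted p = 0.0339) for RPS10A and 0.25 ± 0.06 (adjusted p = 0.0304) for RPS10B.

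Rps16 reaches with its tail towards the tRNA in the peptidyl site. RPS16A (YMR143W) had 1466, 1553 and 1497 CPM in wild-type isolates, 1720.4, 1792 and 1728 in deletion isolates and 1632, 1488 and 1517 in construct isolates, with the deletion libraries above all others. Its level was 1.16-fold that of the wild type in the deletion strain (log2 fold change 0.21 ± 0.05, adjusted p = 0.0378). RPS16B (YDL083C) had 1597, 1701 and 1601 CPM in the wild type and 1689, 1589 and 1650.5 in the deletion strain, which overlapped, with a difference of 0.01 ± 0.08. Among the genes that were not called, the largest differences were those of RPS28A (0.23 ± 0.09), RPS29A (0.22 ± 0.07) and RPS30B, and all 3 were without overlap between the groups. Apart from RPS21A and RPS30A, the called genes named in this comparison kept their call in 3 or 4 of the 9 fits that left out 1 library, and their adjusted p reached 0.108 to 0.161 over all alternatives and left-out libraries.

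**Figure D3:**
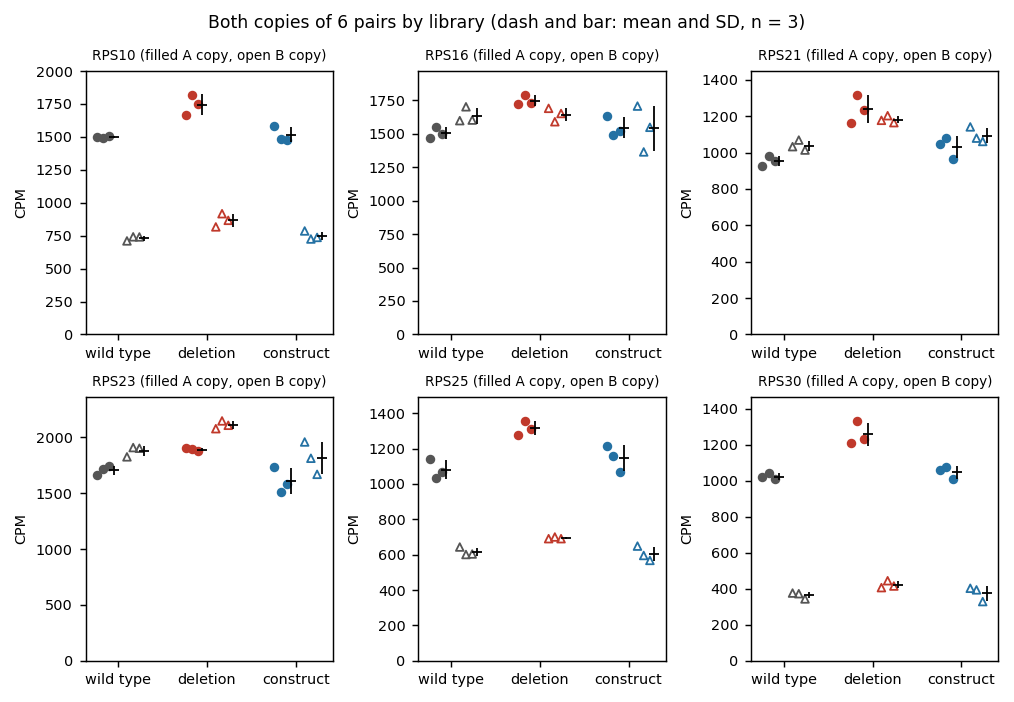
CPM per library (points), mean and SD (n = 3) of the A copy (filled) and B copy (open) of 6 pairs in the 3 groups, with each axis starting at 0. The deletion libraries of RPS21A, 1165 to 1319 CPM, lie above the wild-type libraries, 925 to 979, and RPS16A rises while RPS16B overlaps.

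When the counts of both copies were summed before the fit, 5 families were called higher in the deletion strain and 0 lower. Of all features of that summed table, 4.22% were called higher. At an unadjusted p under 0.05 there were 12 families, and DESeq2 called 8 higher. Neither of these was tallied over all features of the summed table. Among those called by edgeR were RPS21 (0.28 ± 0.05, adjusted p = 0.0106), RPS30 (0.28 ± 0.06, adjusted p = 0.0192), RPS25 (0.24 ± 0.06, adjusted p = 0.0377) and RPS10 (0.23 ± 0.05, adjusted p = 0.0329). None of the 8 single genes was called, and of these RPS31 (0.18 ± 0.05) and RPS12 (0.15 ± 0.05) differed most. Leaving out wild-type replicate 1 or 3, or deletion replicate 2 or 3, left 0 families called, and leaving out wild-type replicate 2 left 1 and deletion replicate 1 left 3. Without construct replicate 1, 2 or 3 there were 10, 8 and 8.

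Shorter genes tended to have the larger fold changes in this comparison. The called genes had a median coding length of 318 bases, against 432 for all 56, and over the 56 genes Spearman's rho between coding length and log2 fold change was -0.45. Over 5721 tested genes with a length it was -0.15. These are correlations across genes, which share the libraries and are not independent, and the part of RNA quality or fragment selection in them was not tested. The median log2 fold change was 0.11 for genes with an intron and 0.10 for those without, and 6 of the 7 called genes had one.

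**Figure D4:**
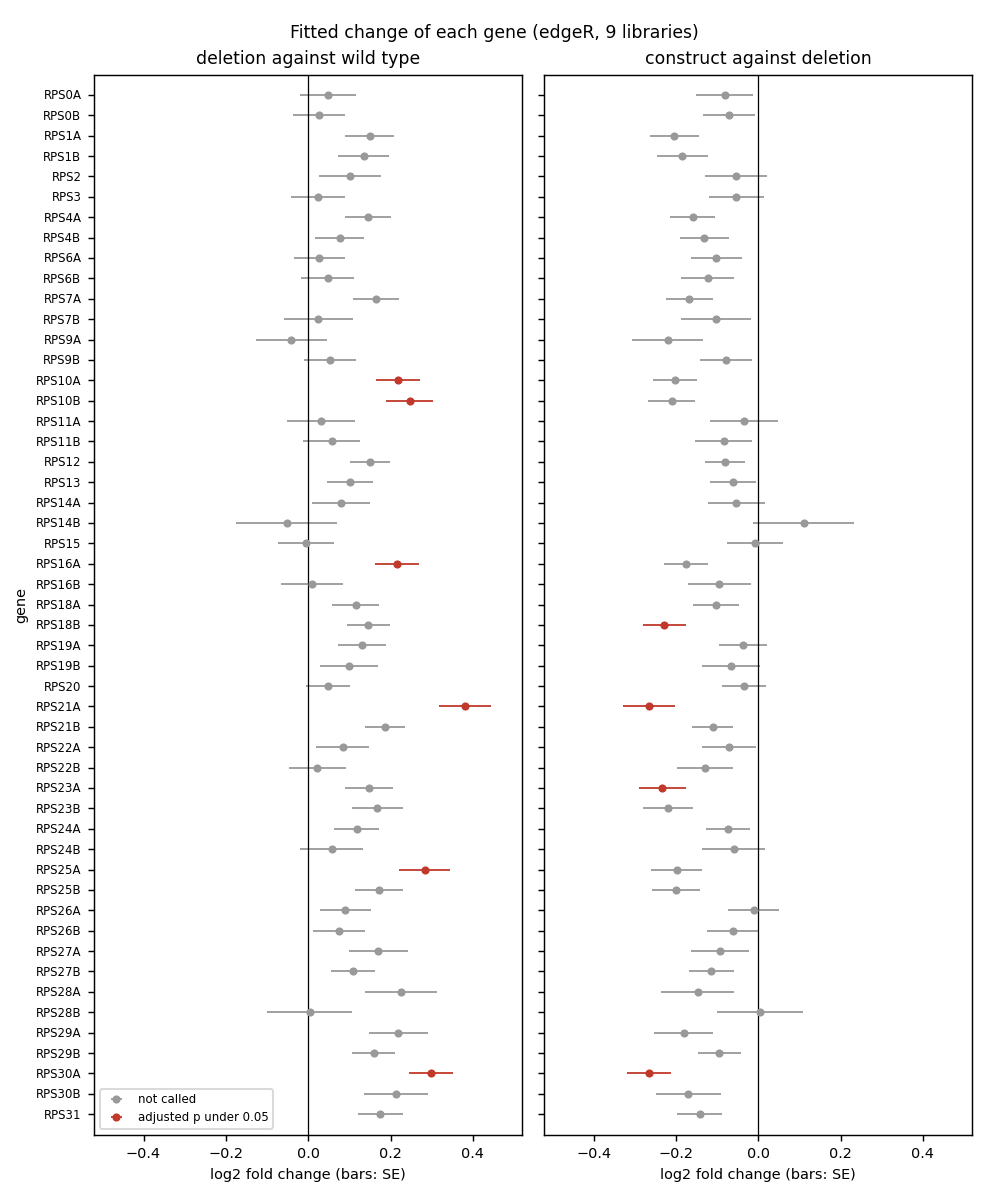
Fitted log2 fold change of 51 of the 56 genes with its SE, for the deletion strain against the wild type (left) and the construct strain against the deletion strain (right), with called genes in red. The called genes drawn lie between 0.21 and 0.38 on the left and between -0.27 and -0.23 on the right, and both panels share the 3 deletion libraries.

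The construct strain was compared with the deletion strain to ask how the genes differ when ZPR1 is expressed from the construct in cells that lack AIM29. Small subunit genes were slightly lower in the construct strain, by a median of 0.11 on the log2 scale (log2 fold change -0.11), with 54 of 56 fold changes below 0. Among the 6 genes called lower, RPS21A, RPS30A, RPS23A and RPS18B fell by 0.23 to 0.27 on the log2 scale. This comparison uses the same deletion libraries as the one above, so a deletion library that is high raises the first difference and lowers the second, and the directions are given side by side without a test of their relation.

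Here edgeR's quasi-likelihood test called 0 of the 56 genes higher and 6 lower (10.7%), where 1.66% of all tested genes were called higher and 3.72% lower. At an unadjusted p under 0.05 the counts were 0 and 21, again without a tally of all tested genes. By DESeq2 the counts were 0 and 13. DESeq2 called 195 higher and 308 lower over all tested genes. All 3 construct libraries lay below all 3 deletion libraries in 24 genes (42.9%) and above them in 0, against 13.5% and 12.2% of all tested genes. The median of -0.11 stood beside 0.0031 for all tested genes and -0.08 for the 81 other ribosomal protein genes. It was -0.16 without construct replicate 1, -0.07 without construct replicate 2 and -0.10 without construct replicate 3. With library totals as the only scaling, all calls went from 99 higher and 222 lower to 196 and 181. None of the 56 genes was called when the 6 libraries of these groups were fitted alone, where 30 of 5948 tested genes were called higher and 123 lower. Without construct replicate 1, which was close to the deletion libraries, 21 of the 56 genes were called lower, where 266 of 6004 tested genes were. Of the 56, 0 were called lower without deletion replicate 2 or 3, 3 without deletion replicate 1, and 2 each without wild-type replicate 1, 2 or 3. Over all tested genes those fits without a deletion or wild-type library called 114 to 194 lower. Without construct replicate 2, 1 of the 56 genes was called higher, RPS14B (0.27, adjusted p = 0.0103), where 312 of 5994 tested genes were. That fit called 408 tested genes lower, among them RPS10A, RPS18B, RPS21A, RPS23A and RPS30A. RPS14B had 314, 217 and 326 CPM in the construct libraries against 257, 273 and 265 in the deletion libraries.

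RPS30A, whose values are given above, fell by 0.26 (SE 0.05, adjusted p = 0.0164) and RPS21A by 0.27 (SE 0.06, adjusted p = 0.0353), and in both all construct libraries were below all deletion libraries. The call of RPS30A was kept in 7 of the 9 fits without 1 library, that of RPS21A in 4, and those of RPS18B and RPS23A in 3 each.

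Rps18 belongs to the head and takes part in a bridge to the large subunit. RPS18B (YML026C, chromosome XIII, 222987 to 223828, minus strand) had 1871, 1875 and 1928 CPM in wild-type isolates, 2059, 2180.3 and 2039.8 in deletion isolates and 1869, 1729.9 and 1762 in construct isolates. Every construct library was below every wild-type and deletion library. RPS18B fell by 0.23 from the deletion strain (SE 0.05, adjusted p = 0.0287), and RPS18A had a difference of -0.10 ± 0.06 (adjusted p = 0.309).

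Rps23 is a protein of the decoding centre that influences the accuracy of translation. RPS23A (YGR118W, chromosome VII, 726974 to 727730, plus strand) had 1664, 1715 and 1742 CPM in wild-type isolates, 1903, 1892 and 1878 in deletion isolates and 1736, 1511 and 1580.3 in construct isolates. The construct libraries were below the deletion libraries and overlapped the wild type. RPS23A fell by 0.23 from the deletion strain (SE 0.06, adjusted p = 0.0434). RPS23B (YPR132W) had 2078, 2147 and 2108 CPM in deletion isolates and 1959, 1813 and 1669 in construct isolates, with a difference of -0.22 ± 0.06 (adjusted p = 0.0681). The largest differences among genes not called were those of RPS23B, RPS9A (-0.22 ± 0.09) and RPS10B (-0.21 ± 0.06).

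With both copies summed, 3 families were called lower and 0 higher in this comparison. Of all features of the summed table, 3.67% were called lower. At an unadjusted p under 0.05 there were 12 families, and DESeq2 called 7 lower, again without a tally over all features. Among those called by edgeR were RPS30 (-0.24 ± 0.06, adjusted p = 0.0383) and RPS23 (-0.23 ± 0.06, adjusted p = 0.0486). Without construct replicate 1 there were 14 and without construct replicate 2 there were 5. Leaving out a wild-type library left 1, and leaving out a deletion library left 0.

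The construct strain was also compared with the wild type, from which it differs by both the deletion and the construct. By edgeR 0 of the 56 genes were called higher and 0 lower, where 0.117% and 0.067% of all tested genes were. DESeq2 called 0 of the 56 as well, where it called 39 of 5970 tested genes higher and 33 lower. Of the 56 genes, 1 had an unadjusted p under 0.05, a threshold at which all tested genes were not tallied. The fold changes were above 0 in 27 genes and below 0 in 29, with a median of -0.0027. Construct replicate 1 stood apart here, with a median log2 ratio to the wild-type mean of 0.10 against -0.08 and -0.03 in replicates 2 and 3, and the median fold change was -0.06 without it and 0.03 without construct replicate 2. All construct libraries lay above the wild-type libraries in 1 gene, RPS12, and below them in 2, RPS9A and RPS18B (1.79% and 3.57%), against 7.81% and 8.58% of all tested genes. These 3 genes are named after their values were seen.

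RPS9A (YPL081W, chromosome XVI, 404950 to 406044, plus strand), the minor gene for a protein that acts in translational accuracy, had 739, 693 and 730.3 CPM in wild-type isolates, 699, 710.2 and 692 in deletion isolates and 646, 506 and 652 in construct isolates. Its construct libraries were below all others, and replicate 2 was the lowest. The difference from the wild type was -0.26 ± 0.09 (unadjusted p = 0.0119, adjusted p = 0.288). RPS9B had 2999, 3065 and 3002 CPM in the wild type and 3259.8, 2782 and 2862 in the construct strain, which overlapped. After RPS9A the largest differences were 0.12 ± 0.06 in RPS21A and -0.11 ± 0.07 in RPS22B, and neither passed the test. SEs were 0.05 to 0.12 on the log2 scale, and even RPS9A at -0.26 was not called. Differences from the wild type of that size or smaller could go undetected, so the lack of calls does not show that they are absent. Coding length and log2 fold change had a Spearman's rho of -0.56 over the 56 genes here, against 0.03 over all tested genes with a length. Between construct and deletion strain rho was 0.08 over the 56 genes and 0.17 over all tested genes with a length.

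Within a pair, the balance between copies is free of the scaling of the libraries. The copies of a pair differed in log2 fold change between deletion strain and wild type by a median of 0.06 and at most 0.22, and the A copy had the higher fold change in 17 of 24 pairs. The A share was above the wild type in all deletion libraries in 9 pairs, below in 0, and overlapped in 15. The 9 include RPS4 and RPS24, whose single-copy values are uncertain. Other duplicated genes were not examined, so these counts have no share over other pairs beside them. With 3 libraries against 3, the exact permutation test cannot give a two-sided p below 0.1, so none of these shares could pass 0.05.

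The 3 pairs with the largest change in share between deletion strain and wild type were RPS28, RPS16 and RPS21. Rps28 lies by the exit of the mRNA, and its protein is known to promote decay of the RPS28B transcript. RPS28A made up 50.6%, 49.5% and 48.5% of its pair in wild-type isolates, 52.0%, 54.9% and 53.0% in deletion isolates and 49.1%, 59.4% and 43.9% in construct isolates. Deletion libraries were all above the wild type, by 3.82 percentage points on average (exact permutation p = 0.1, n = 3 against 3), while the construct libraries spread over both. RPS28B had 742, 788 and 769 CPM in the wild type and 772, 763 and 769 in the deletion strain, and RPS28A, which was not called, had 759, 771 and 724 against 836, 930.4 and 868.

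RPS16A made up 47.9%, 47.7% and 48.3% of its pair in wild-type isolates, 50.5%, 53.0% and 51.1% in deletion isolates and 48.9%, 52.2% and 49.5% in construct isolates. Its share was above the wild type in all libraries of both other groups, by 3.57 points in the deletion strain and 2.23 points in the construct strain (exact permutation p = 0.1 for each). RPS21A made up 47.2%, 47.8% and 48.4%, then 49.7%, 52.3% and 51.5%, then 47.9%, 50.1% and 47.6%. The deletion libraries were above the wild type by 3.34 points (exact permutation p = 0.1), and the construct libraries overlapped both groups.

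Between construct and deletion strain the A share was above in all libraries in 2 pairs and below in 1, RPS4, whose single-copy values are uncertain. The largest changes were -2.66 points in RPS21 and -2.50 in RPS28, both with overlap between the groups. The RPS28 value rested on single libraries, at -6.78 points without construct replicate 2 and 0.94 without construct replicate 3. Against the wild type the construct strain had an A share above in all libraries in 3 pairs and below in 0. Its largest changes were -2.42 points in RPS9, with overlap, 2.23 in RPS16 and 1.80 in RPS25.

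**Figure D5:**
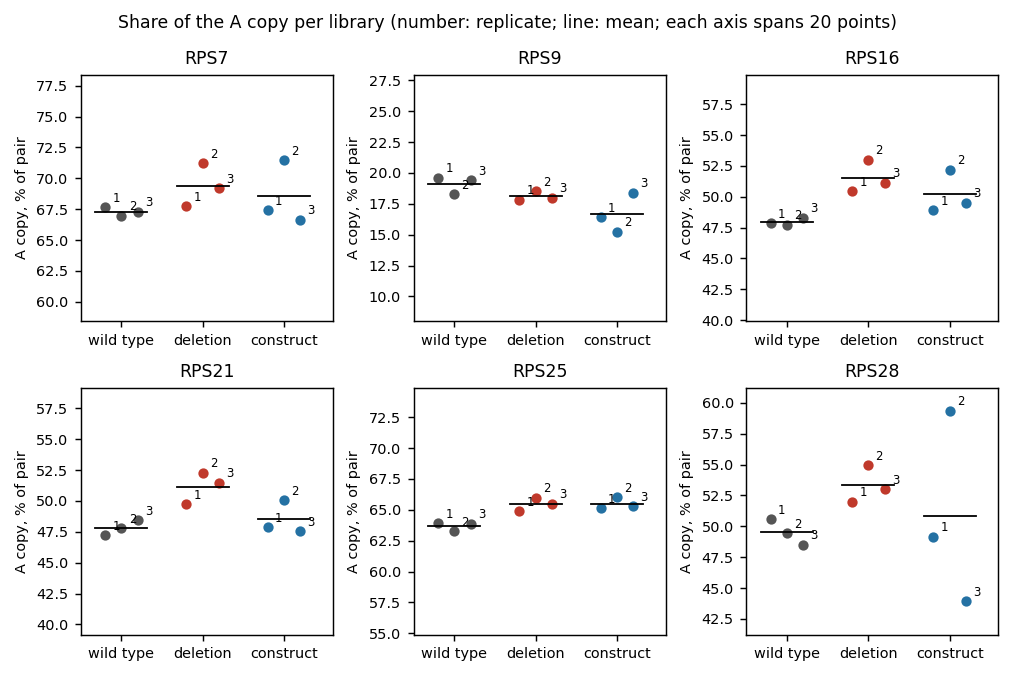
Share of the A copy in the counts per kilobase of its pair, in percent, for each library (points with the replicate number) and as group means (lines) in 6 pairs, on axes that each span 20 points. RPS16, RPS21 and RPS28 have all 3 deletion libraries above the wild type, and the construct libraries of RPS28 run from 43.9% to 59.4%.

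Promoters of the 56 genes were searched for the letters of 4 factors in the 500 bases before the start codon, on both strands, in the genome of build R64. The Rap1 core ACCCNNACA was found in 18 of 56 genes (32.1%), against 5.47% of 6000 genes with such a window. The letters GACGCA of Fhl1 were in 6 (10.7%, against 10.9%), AAAATTTT of Sfp1 in 4 (7.14%, against 12.4%) and the Abf1 motif in 4 (7.14%, against 11.3%). In the 250 bases before the start codon the Rap1 core was in 4 (7.14%, against 2.50%). A match is a run of letters and not a measured site, and other forms of the Rap1 site were not searched.

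Of the 7 genes called in the deletion strain, RPS10A, RPS10B and RPS16A had a match to the Rap1 core and RPS21A, RPS30A and RPS25A had none in this window. The matches of those 3 are shown within 80 bases, on the strand of the gene, because these genes were called and matched. Capitals mark the Rap1 core or its reverse complement. The stretches are at chrXV:866723-866802 for RPS10A (plus strand), chrXIII:732189-732268 for RPS10B (plus strand) and chrXIII:551586-551665 for RPS16A (plus strand), and 331, 181 and 298 bases lie between the match and the start codon.
RPS10A: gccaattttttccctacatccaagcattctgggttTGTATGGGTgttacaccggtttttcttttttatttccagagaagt
RPS10B: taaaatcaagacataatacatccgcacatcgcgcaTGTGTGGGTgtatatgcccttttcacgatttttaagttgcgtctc
RPS16A: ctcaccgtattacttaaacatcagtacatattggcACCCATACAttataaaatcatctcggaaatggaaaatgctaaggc

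Genes that act with the 56 were examined as 3 lists. Of 20 assembly factors and escort proteins of the 40S subunit, 0 were called in either direction in the deletion strain by edgeR. Of the 20, 7 had an unadjusted p under 0.05, and DESeq2 called 2, where it called 232 of 5970 tested genes lower. All tested genes at that unadjusted p were not tallied for any comparison. The unadjusted counts of the 3 lists therefore cannot be set against a share of all genes. The median log2 fold change of the 20 from the wild type was -0.14, opposite in sign to that of the 56 genes. RIO1, a kinase of late 40S maturation, was at 138 ± 3.22 CPM in the wild type and 117 ± 6.14 in the deletion strain (-0.23 ± 0.06, adjusted p = 0.0518 by edgeR and 0.0165 by DESeq2). TSR1, a GTPase-like factor of late 40S maturation, was at 424 ± 13.2 and 363 ± 8.89 (-0.22 ± 0.07, adjusted p = 0.0739 by edgeR and 0.0276 by DESeq2). Against the wild type the construct strain had a median of -0.18 for these 20 genes, with 0 called by edgeR, 10 at an unadjusted p under 0.05 and 2 by DESeq2, again RIO1 and TSR1. In the construct strain against the deletion strain their median was -0.04, with 0 called by either tool and 1 at an unadjusted p under 0.05.

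Regulators of ribosomal protein genes, 11 in number, had medians of -0.02, -0.04 and 0.0070 in the 3 comparisons, taken in the order above. EdgeR called 0 of them in each, with 1, 2 and 1 at an unadjusted p under 0.05. DESeq2 called 1, TOD6, a repressor of ribosome biogenesis genes, which was at 188 ± 5.23 CPM in deletion isolates and 154 ± 18.6 in construct isolates (-0.28 ± 0.08, adjusted p = 0.0713 by edgeR and 0.0257 by DESeq2). The 6 factors that bind the 40S subunit had medians of -0.09, 0.07 and -0.03 in the same order, with 0 called by either tool and 1, 0 and 0 at an unadjusted p under 0.05.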

How the data were processed

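The authors deposited whole-number read counts per annotated feature for 9 poly(A) RNA libraries, not normalised; the submitters' processing notes name FastQC 0.11.5, STAR 2.7.0, DESeq2 1.34.0 and build R64. The sources used here do not give the counting tool, strand setting or treatment of multiply mapped reads. Per the labels' protocols, 3 isolates of each strain were grown, so p-values measure the spread between isolates. The genes, lists and tests were chosen with earlier results of these data known. Counts of the 9 libraries were fitted together with edgeR 4.0.16 in R 4.3.3 (TMM, filterByExpr, quasi-likelihood test, group as the only term, 6 residual degrees of freedom) and adjusted by the Benjamini-Hochberg method over 5970 genes; all 56 genes passed the filter. All counts and medians cover the 56 genes, of which 5 are not reported here by name or drawn. CPM used TMM-scaled totals, with 3 counts worth 0.143 to 0.213 CPM. Copy shares were counts per coding kilobase, compared by a two-sided exact permutation test. Alternatives were other scalings and filters, DESeq2 1.42.0, limma 3.58.1 with quality weights, a replicate block, the groups compared alone and each library left out. The procedure was tested on simulated data. No replicate pair was a copy: a chi-square of their counts, per degree of freedom, was 2.91 to 65.8. Promoter windows and coding sequences were read from the RefSeq genome of build R64. Apart from those 5, named genes are those called, their other copies, the highest and lowest by level or A share, the 3 uncalled genes with the largest difference per comparison, and the pairs with the largest changes of share.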

Additional observations from a re-analysis of the deposited data

How the results depend on the processing

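No called gene turned direction under an alternative. Genes called higher in the deletion strain, 7 by the fit reported, numbered 3 with library totals alone, 11 with DESeq2, 28 with limma-voom and quality weights, 28 with the 2 groups alone and 1 to 18 with 1 library left out. Over all tested genes the calls, 253 by the fit reported, numbered 187, 365, 827, 837 and 122 to 577 under the same settings. Genes called lower in the construct strain against the deletion, 6 as reported, numbered 13 with DESeq2, 0 with the 2 groups alone and 0 to 21 with 1 library left out, and genes called higher 0 to 1. The lower calls over all tested genes, 222 as reported, numbered 308 with DESeq2, 123 with the 2 groups alone and 114 to 408 with 1 library left out. Families called higher in the deletion strain, 5 as reported, numbered 1 with library totals alone, 8 with DESeq2, 17 with quality weights, 19 with the 2 groups alone and 0 to 10 with 1 library left out. Families called lower in the construct strain against the deletion, 3 as reported, numbered 7 with DESeq2, 0 with the 2 groups alone and 0 to 14 with 1 library left out. Calls over all features of the summed counts were not tallied under these alternatives. The median log2 fold change of the 56 genes in the deletion strain was 0.0528 with library totals alone and 0.10 to 0.12 with 1 library left out. With library totals alone the median of all tested genes was -0.049. In the construct strain against the deletion, -0.11 as reported, the median was -0.06 with quality weights and -0.16 to -0.07 with 1 library left out. Against the wild type, -0.0027 as reported, it was 0.05 with quality weights and -0.06 to 0.03 with 1 library left out. With a replicate block there were 4 genes and 3 families called higher in the deletion strain and 3 genes called lower in the construct strain against the deletion. Over all 5970 tested genes that fit called 232 higher in the first comparison and 206 lower in the second. The replicate numbers were not shown to pair the libraries: deviations of same-numbered libraries correlated at -0.127 to 0.128, and 2 of 9 such pairs were above 0.1. For the deletion strain, the calls of DESeq2, of quality weights and of the 2 groups alone each included all 7 genes. The cause of these shifts was not tested, but leaving out a library or fitting 2 groups alone changes the number of libraries and the shared spread. The 3 libraries per group and the wider spread of the construct strain limit what differences could be detected.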
